A study of Mus musculus with 6 samples.

Results

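The genes described here are 10 members of the Notch pathway and of the secretory lineage programme of the intestinal epithelium, namely the receptors Notch1 and Notch2, the ligands Dll1, Dll4 and Jag1, the target Hes1, and the lineage factors Atoh1, Gfi1, Neurog3 and Hes6. They were chosen by symbol, with earlier results of these data known. All 10 were found among the 23390 genes of the deposited table, and all 10 passed the filter on low counts that left 13740 genes for testing. The RNA came from small-intestinal epithelium of C57BL/6 mice, sorted by flow cytometry for viable cells without CD45, a leukocyte protein, and with EpCAM, an epithelial one. The libraries were 3 from Vil.Cre Maf.flox mice, in which Cre under the villin promoter recombines floxed Maf in the intestinal epithelium, and 3 libraries from Maf.flox mice, which carry the floxed allele without Cre. No group had Cre without the floxed allele, so effects of Cre and of Maf loss cannot be told apart. The labels give no age, and do not say whether each library came from a separate mouse. Counts of sex-linked genes placed both sexes in each group, so neither group came from a single mouse. The p-values rest on a spread that may still be technical in part.

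Notch receptors are single-pass membrane proteins that are cleaved when a Delta or Jagged ligand on a neighbouring cell binds them, and the freed intracellular part joins the DNA-binding protein Rbpj to switch on targets such as Hes1. In intestinal crypts, Hes1 represses Atoh1, and cells with active Notch take the absorptive path. Cells that escape the signal keep Atoh1, present Delta ligands to their neighbours and become goblet, Paneth or enteroendocrine cells.

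The targeted gene followed the labels. Maf, a basic leucine zipper transcription factor, had 16, 1 and 1 counts in the Vil.Cre Maf.flox libraries against 9398, 5615 and 3893 in the Maf.flox libraries. Total counts were 17464355 to 21631476 in Vil.Cre Maf.flox and 19842751 to 24802525 in Maf.flox libraries. Counts of Xist and Y-linked genes placed 2 males and 1 female in the Vil.Cre Maf.flox group and 1 male and 2 females in the Maf.flox group, and the female of the first group was replicate 3. Vil1, a microvillus protein of the epithelium, had 2080 ± 348 CPM in Vil.Cre Maf.flox and 2720 ± 546 CPM in Maf.flox, and Ptprc, which encodes CD45, had 0.315 ± 0.248 and 1.14 ± 1.04 CPM (SD, n = 3 each). Summed markers of cells that the sort should exclude were 26.2 to 33.4 CPM in Vil.Cre Maf.flox and 20.2 to 31.2 CPM in Maf.flox for 9 leukocyte genes, 2.14 to 3.04 and 1.51 to 2.69 CPM for 5 endothelial genes, 0.128 to 0.411 and 0.285 to 0.677 CPM for 7 fibroblast and muscle genes, and 0.294 to 0.685 and 0.26 to 0.757 CPM for 4 neuron and glia genes. Of the 9 leukocyte genes, 6 had under 1 CPM in both group means and 3 had enough counts to test. Itgam, a myeloid integrin, had 12.6 ± 2.41 CPM in Vil.Cre Maf.flox and 6.80 ± 0.949 CPM in Maf.flox (SD, n = 3 each), without overlap. Its log2 fold change of 0.89 was not called (adjusted p = 0.0795, edgeR's quasi-likelihood test). The other 2 lay below 0, at -1.86 for Ptprc and -0.12 for Lcp1, and were not called either. The part of these genes in the members' levels was not tested. CPM here are counts relative to library size after TMM scaling, which corrects for library composition.

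No member passed the test over all genes. In the edgeR quasi-likelihood fit 0 of the 10 had an adjusted p under 0.05, where 75 of the 13740 genes, or 0.546%, did (0.189% higher and 0.357% lower in Vil.Cre Maf.flox). At an unadjusted p under 0.05 there was 1 member, Gfi1, against 16.4% of all genes (7.11% higher, 9.25% lower), and DESeq2 called 1 member, Gfi1 again, while limma-voom called 0. Over all genes DESeq2 called 760 of the 13466 to which it gave an adjusted p, or 5.64%, and limma-voom called 34, or 0.247%. The log2 fold changes of Vil.Cre Maf.flox over Maf.flox ran from -0.54 for Notch1 to 0.82 for Gfi1, with 5 members above 0 and 5 below 0, where 51.6% of all genes tested lay below 0. Their median was 0, beside -0.01 over all genes tested. The 2 genotypes did not overlap for 1 of 10 members, Gfi1, while 20.6% of all genes tested had no overlap in either direction and 10.1% lay wholly above in Vil.Cre Maf.flox.

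**Figure D1:**
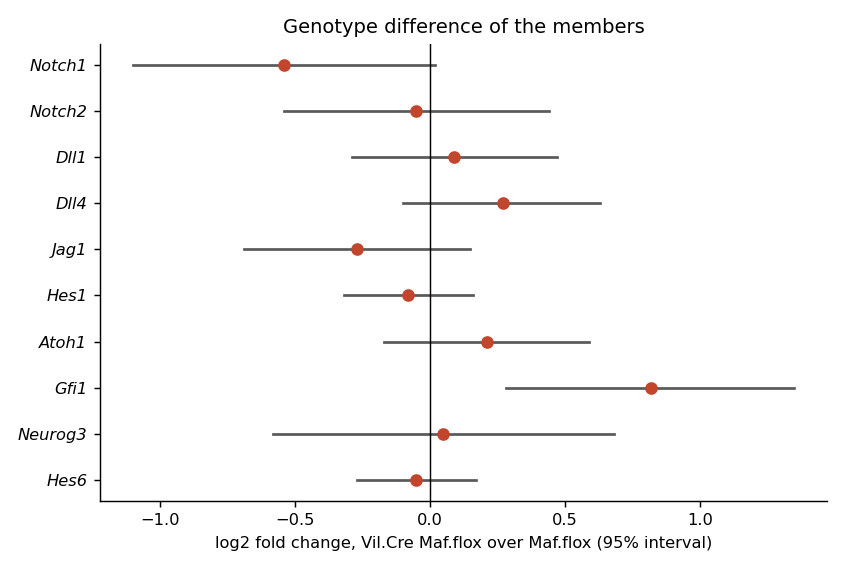
Log2 fold change of each member, Vil.Cre Maf.flox over Maf.flox, with its 95% interval derived from edgeR's quasi-likelihood F test (3 libraries a group). The interval of Gfi1 runs from 0.28 to 1.35 and that of Notch1 from -1.10 to 0.02, and the intervals of all members but Gfi1 include 0.

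Gfi1 encodes a zinc-finger transcriptional repressor that acts downstream of Atoh1 in the mouse intestine, where it favours goblet and Paneth cells over enteroendocrine cells. It had 22.2, 18.4 and 11.2 CPM in Vil.Cre Maf.flox replicates 1, 2 and 3, against 9.84, 9.27 and 10.2 CPM in the Maf.flox replicates. All Vil.Cre Maf.flox libraries lay above all Maf.flox libraries, but replicate 3 exceeded the highest control only narrowly. The means were 17.3 ± 5.62 CPM in Vil.Cre Maf.flox and 9.78 ± 0.492 CPM in Maf.flox (SD, n = 3 each), and the fitted difference was 1.76-fold. The log2 fold change was 0.82 (SE 0.235, 95% interval 0.28 to 1.35), and it did not pass over all genes (adjusted p = 0.148, edgeR's quasi-likelihood test). DESeq2 gave the same fold change with an adjusted p of 0.0255, and the range of adjusted p over the 14 alternative fits was 0.0255 to 0.486. Within males (2 Vil.Cre Maf.flox, 1 Maf.flox) the difference of mean log2 CPM was 1.03, and within females (1 and 2) it was 0.20. Sex and replicate 3 cannot be told apart in the Vil.Cre Maf.flox group. The gene (ENSMUSG00000029275, GRCm38 chromosome 5, 107716657 to 107726036, minus strand) overlaps the noncoding A430072P03Rik on the other strand, which had 0 to 5 counts a library.

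Atoh1, the basic helix-loop-helix factor that commits crypt cells to the secretory path, did not separate the genotypes. Its levels were 54.6, 53.7 and 35.1 CPM in Vil.Cre Maf.flox replicates 1, 2 and 3, against 44.3, 38.4 and 41.3 CPM in Maf.flox. Replicates 1 and 2 of Vil.Cre Maf.flox were the highest of the 6 libraries and replicate 3 of that genotype was the lowest. The log2 fold change was 0.21 (SE 0.167, 95% interval -0.17 to 0.59, adjusted p = 0.597 by edgeR's quasi-likelihood test). Atoh1 (ENSMUSG00000073043) lies on GRCm38 chromosome 6, 64729125 to 64731245, plus strand.

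Relative to Atoh1, Gfi1 was higher in each Vil.Cre Maf.flox library than in each control. The ratio of the Gfi1 to the Atoh1 level in FPKM, which corrects for gene length and cancels library size, was 0.271, 0.229 and 0.212 in Vil.Cre Maf.flox and 0.148, 0.161 and 0.165 in Maf.flox. The means were 0.237 ± 0.0304 in Vil.Cre Maf.flox and 0.158 ± 0.00889 in Maf.flox (SD, n = 3 each). This ratio was 1 of 7 computed between members after their values were seen, of which 2 had no overlap between genotypes, and it was not tested. Among single genes, 20.6% of those tested had no overlap, Gfi1 itself being 1 of them. The share among ratios of other gene pairs was not computed, so the 2 of 7 cannot be read as particular to the members.

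Neurog3 and Hes6 showed no separation. Neurog3, the factor that starts the enteroendocrine programme, was the lowest member, with 49, 29 and 49 counts in the Vil.Cre Maf.flox libraries and 42, 35 and 53 counts in the Maf.flox libraries. Its levels were 2.49, 1.70 and 2.10 CPM in Vil.Cre Maf.flox and 1.77, 1.82 and 2.51 CPM in Maf.flox, and the log2 fold change of 0.05 had a wide 95% interval of -0.58 to 0.68. Neurog3 lies inside Fam241b on the other strand, which had 491 to 617 counts a library, and the sources used here do not settle whether counting used strand. Hes6, a relative of Hes1 known to counteract it, had 53.7, 54.3 and 47.4 CPM in Vil.Cre Maf.flox and 51.2, 54.3 and 55.4 CPM in Maf.flox. Its log2 fold change of -0.05 had the narrowest interval of the 10 members, from -0.27 to 0.17.

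**Figure D2:**
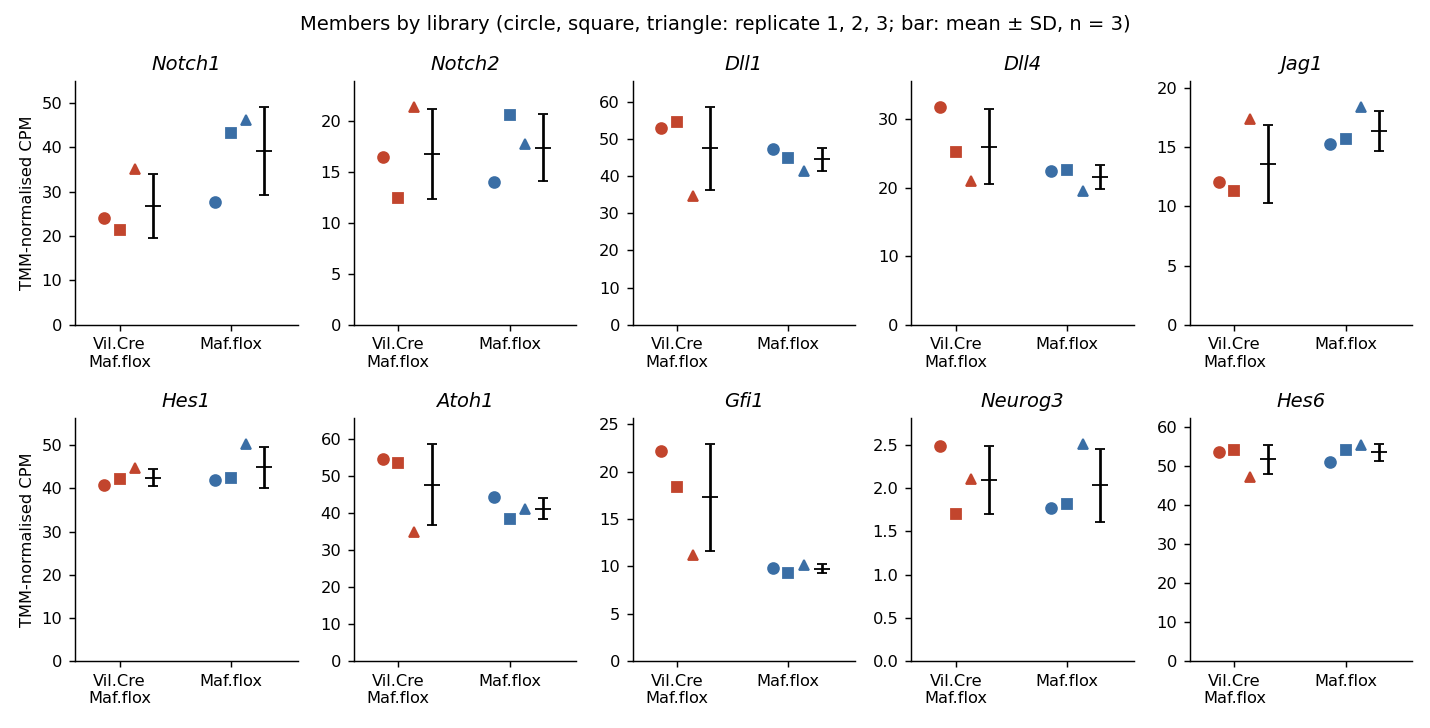
TMM-normalised CPM of each member (vertical axes, each from 0) in the 3 Vil.Cre Maf.flox and the 3 Maf.flox libraries, with the mean and SD beside the points. Gfi1 is the member whose groups do not overlap (11.2 to 22.2 against 9.27 to 10.2 CPM).

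Promoter windows are shown for Gfi1, the member whose genotypes did not overlap, for Atoh1, which acts upstream of it, and for Dll1, whose FPKM ratio to Atoh1 stayed between 0.488 and 0.588 in the 6 libraries. RefSeq (GRCm38.p6) gave windows of 250 bases before the start for 9 of the 10 members, 12 windows in all; Hes1 was not among them. Each window was searched on both strands for TGCTGA, the core of the element that Maf proteins bind, for the E-box CANNTG, which basic helix-loop-helix factors such as Atoh1 bind, for the N-box CACNAG, which Hes1 binds, and for TGGGAA, the core of the Rbpj site. The E-box reads the same on both strands and was counted once, and matches of different motifs did not overlap in these windows. In these sequences, written 5′ to 3′ on the strand of the gene, capitals mark TGCTGA or its reverse complement in Gfi1 and Atoh1 and the E-boxes in Dll1. Gfi1 and Dll1 each had a further window, and the one with more matches of the marked motif is shown. The windows not shown held 0 TGCTGA for Gfi1 and 1 E-box for Dll1. The Gfi1 window is cut to the 149 bases next to the start, up to the nearest annotated exon, chr5:107725806-107725954, minus strand. The Atoh1 window is chr6:64728875-64729124, plus strand, and the Dll1 window is chr17:15376933-15377182, minus strand.
Gfi1: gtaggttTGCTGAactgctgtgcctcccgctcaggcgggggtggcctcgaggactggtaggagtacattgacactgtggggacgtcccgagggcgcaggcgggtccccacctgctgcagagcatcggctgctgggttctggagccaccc
Atoh1: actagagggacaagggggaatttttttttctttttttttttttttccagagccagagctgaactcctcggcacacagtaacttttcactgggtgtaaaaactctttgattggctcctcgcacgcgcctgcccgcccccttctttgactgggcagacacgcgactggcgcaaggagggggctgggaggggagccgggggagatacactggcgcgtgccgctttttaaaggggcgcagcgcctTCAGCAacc
Dll1: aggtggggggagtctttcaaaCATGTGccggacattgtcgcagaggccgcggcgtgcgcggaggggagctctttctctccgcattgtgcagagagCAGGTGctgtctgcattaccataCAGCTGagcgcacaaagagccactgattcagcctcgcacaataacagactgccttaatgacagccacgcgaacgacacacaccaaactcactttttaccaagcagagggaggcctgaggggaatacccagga

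TGCTGA was found in 2 of the 12 member windows, 1 of Gfi1 and 1 of Atoh1, and in 16.1% of all 32807 promoter windows of that length. E-boxes were found in 8 of the 12 and in 66.2% of all windows, and the N-box in 4 of the 12 and in 36.7% of all windows. TGGGAA was found in 0 of the 12 and in 21.6% of all windows. These matches are letters in a short window and say nothing of whether a factor binds there.

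Of the ligands, the Delta genes shared with Atoh1 that Vil.Cre Maf.flox replicate 3 was the lowest library of its group. That library was the lowest of its group for 39.3% of all genes tested. Neither Delta gene passed the test. Dll1, a ligand presented by secretory progenitors, had 53.0, 54.7 and 34.7 CPM in Vil.Cre Maf.flox replicates 1, 2 and 3 and 47.3, 44.9 and 41.3 CPM in Maf.flox. Dll4, the other Delta ligand of the crypt, had 31.8, 25.2 and 21 CPM in Vil.Cre Maf.flox and 22.5, 22.6 and 19.5 CPM in Maf.flox. For both genes Vil.Cre Maf.flox replicates 1 and 2 were the highest of the 6 libraries, and replicate 3 lay among or below the controls. The log2 fold changes were 0.09 (95% interval -0.29 to 0.47) for Dll1 and 0.27 (-0.10 to 0.63) for Dll4, with adjusted p of 0.839 and 0.451 in the edgeR fit. The FPKM ratio of Dll1 to Atoh1 varied little, at 0.488, 0.513 and 0.498 in Vil.Cre Maf.flox and 0.537, 0.588 and 0.503 in Maf.flox. Dll1 (chromosome 17, 15367354 to 15376872, minus strand) overlaps A930024N18Rik on the other strand, with 20 to 32 counts a library, and Dll4 (chromosome 2, 119325784 to 119335962, plus strand) overlaps Gm14207, with 93 to 128.

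Jag1, a ligand of the Jagged class, had the opposite order. Its levels were 12.1, 11.3 and 17.4 CPM in Vil.Cre Maf.flox and 15.3, 15.7 and 18.4 CPM in Maf.flox, so that Vil.Cre Maf.flox replicates 1 and 2 were the lowest of the 6 libraries. The log2 fold change was -0.27 (95% interval -0.69 to 0.15, adjusted p = 0.516 by edgeR's quasi-likelihood test).

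Among the receptors, Notch1 had the lowest fold change of the 10 members and Notch2 one near 0. Notch1 had 24.0, 21.3 and 35.0 CPM in Vil.Cre Maf.flox and 27.7, 43.3 and 46.2 CPM in Maf.flox. The groups overlapped, since Vil.Cre Maf.flox replicate 3 lay above Maf.flox replicate 1. Its log2 fold change was -0.54 (SE 0.242, 95% interval -1.10 to 0.02, adjusted p = 0.324 by edgeR's quasi-likelihood test), with differences of mean log2 CPM of -0.29 in males and -0.35 in females. Notch2, the second receptor expressed in the crypt, had 16.5, 12.5 and 21.4 CPM in Vil.Cre Maf.flox and 14, 20.6 and 17.8 CPM in Maf.flox. Its log2 fold change was -0.05 (95% interval -0.54 to 0.44), and the lowest and the highest of the 6 libraries were both Vil.Cre Maf.flox.

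The balance of the receptors was the other ratio without overlap. The FPKM ratio of Notch1 to Notch2 was 1.10, 1.29 and 1.24 in Vil.Cre Maf.flox and 1.5, 1.6 and 1.97 in Maf.flox, with means of 1.21 ± 0.0948 in Vil.Cre Maf.flox and 1.69 ± 0.246 in Maf.flox (SD, n = 3 each). It too was chosen after the values were seen and was not tested, and no share over ratios of other gene pairs was computed. Notch1 lies on chromosome 2 (26457903 to 26516663, minus strand) and overlaps the noncoding 0610009E02Rik on the other strand, with 7 to 14 counts a library.

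Hes1, the Notch target that represses Atoh1, had 40.7, 42.1 and 44.7 CPM in Vil.Cre Maf.flox and 42.0, 42.3 and 50.3 CPM in Maf.flox. These 6 levels lay close together, and the log2 fold change of -0.08 had a 95% interval of -0.32 to 0.16 (adjusted p = 0.775 by edgeR's quasi-likelihood test). The FPKM ratio of Hes1 to Atoh1 was 0.776, 0.817 and 1.33 in Vil.Cre Maf.flox and 0.987, 1.15 and 1.27 in Maf.flox. Vil.Cre Maf.flox thus held the lowest ratios and the highest one.

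Several members placed Vil.Cre Maf.flox replicate 3 at one end of its group. It was the lowest library for 5 of 10 members, Dll1, Dll4, Atoh1, Gfi1 and Hes6, and the highest for 4 of 10, Notch1, Notch2, Jag1 and Hes1. Such positions were not particular to it, since Maf.flox replicates 1 and 3 were each the lowest or highest of their group for 8 of 10 members. Over all genes tested, Vil.Cre Maf.flox replicate 3 was the lowest of its group for 39.3% and the highest for 34.3%. It was thus at an end of its group for 73.6%, Maf.flox replicate 1 for 69.9% and Maf.flox replicate 3 for 78.1%. The highest Vil.Cre Maf.flox library exceeded the lowest by 1.99-fold for Gfi1, 1.56-fold for Atoh1 and 1.58-fold for Dll1, whereas the Maf.flox libraries spanned 1.11-fold, 1.15-fold and 1.14-fold. Dll4, Jag1, Notch2, Hes6 and Neurog3 also spanned more in Vil.Cre Maf.flox, Neurog3 only narrowly (1.46-fold against 1.42-fold). Notch1 (1.64-fold against 1.67-fold) and Hes1 (1.10-fold against 1.20-fold) spanned more in Maf.flox. Over all genes tested, chi-square per gene between replicates was 35.2 to 38.4 in Vil.Cre Maf.flox and 37.8 to 133 in Maf.flox. The grouping of members by the position of Vil.Cre Maf.flox replicate 3 was seen in the values and describes these libraries. In Vil.Cre Maf.flox replicate 3, the summed level of 9 stem and transit cell markers was 3290 CPM, against 2410 and 2380 CPM in replicates 1 and 2, and that of 9 goblet cell markers was 15400 CPM, against 21500 and 29400 CPM. Its Paneth marker sum was the highest of its group (11700 CPM, against 8250 and 8050 CPM), and its enterocyte and enteroendocrine marker sums were the lowest (5370 CPM, against 7110 and 9290 CPM, and 336 CPM, against 645 and 474 CPM). Maf.flox replicate 3 likewise had the highest stem and transit, the highest Paneth and the lowest goblet, enteroendocrine and enterocyte sums of its group. Maf.flox libraries had 2640 to 3720 CPM of the stem and transit markers and 15600 to 34400 CPM of the goblet markers. In bulk RNA, fewer cells of a type and less RNA per cell cannot be told apart, and the part of cell makeup, sex or this library in the members' levels was not tested.

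**Figure D3:**
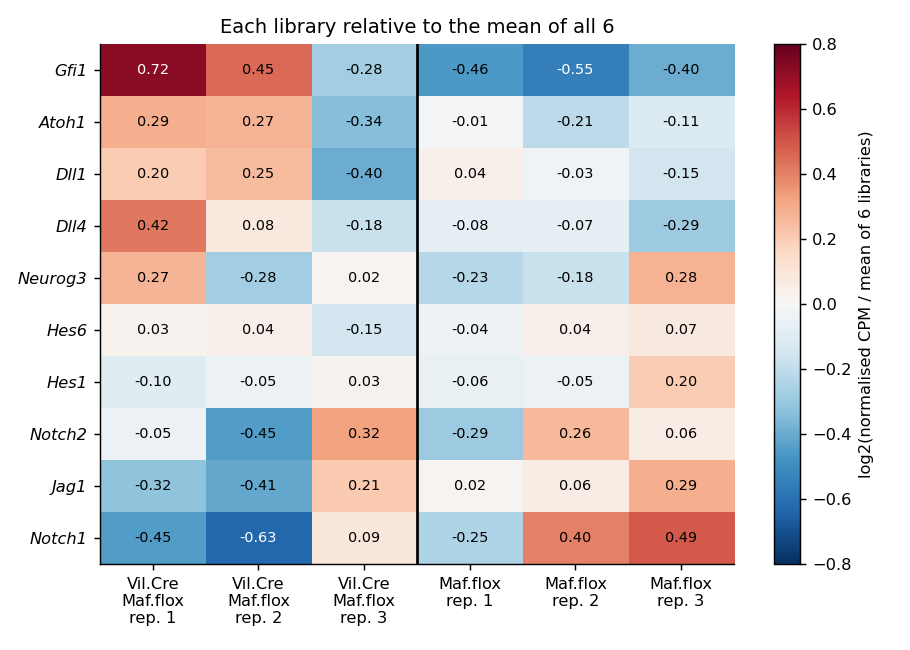
Log2 of the normalised CPM of each member over its mean in all 6 libraries (colour and printed value), with the Vil.Cre Maf.flox libraries left of the line and the Maf.flox libraries right of it. In Vil.Cre Maf.flox replicates 1 and 2 Gfi1, Atoh1, Dll1 and Dll4 lie above 0 and Notch1, Jag1 and Notch2 below 0, and in replicate 3 each of these signs is the opposite.

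Per length, the members differed in level far more than any differed between genotypes. In mean FPKM of Vil.Cre Maf.flox and of Maf.flox, Hes6 had 28.7 ± 2.02 and 29.5 ± 0.975, Atoh1 22.6 ± 5.14 and 19.4 ± 1.56, and Hes1 20.9 ± 1.06 and 21.9 ± 2.25 (SD, n = 3 each). Atoh1 and Hes1 did not differ beyond their spread in either genotype. Dll1 followed with 11.3 ± 2.60 in Vil.Cre Maf.flox and 10.5 ± 0.777 in Maf.flox, then Dll4 with 6.76 ± 1.41 and 5.57 ± 0.477, and Gfi1 with 5.43 ± 1.76 and 3.06 ± 0.165. Dll4 and Gfi1 overlapped in Vil.Cre Maf.flox and were apart in Maf.flox. Jag1 had 2.34 ± 0.576 and 2.81 ± 0.282 FPKM, Notch1 1.89 ± 0.518 and 2.73 ± 0.674, Notch2 1.56 ± 0.418 and 1.61 ± 0.289, and Neurog3 1.25 ± 0.236 and 1.21 ± 0.244. Jag1 overlapped Notch1 in both genotypes, as Notch2 did Neurog3, while Notch1 and Notch2 overlapped in Vil.Cre Maf.flox and were apart in Maf.flox. These overlaps compare ranges across libraries. Within each library Dll4 exceeded Gfi1, Notch1 exceeded Notch2 and Notch2 exceeded Neurog3, whereas the order of Jag1 and Notch1 varied.

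The wider Notch pathway was described with a list of 56 genes that includes 7 of the members. Of these, 44 were tested, 12 with a log2 fold change above 0 and 32 below 0, with a median of -0.11 beside -0.01 over all genes. In the edgeR fit 0 of 44 passed over all genes. At an unadjusted p under 0.05 there were 8 (1 higher, 7 lower), against 16.4% of all genes (7.11% higher, 9.25% lower). The genotypes did not overlap for 1 gene higher in Vil.Cre Maf.flox and 8 lower, against 10.1% and 10.5% of all genes. DESeq2 called 1, Hes2, a relative of Hes1, where it called 5.64% of all genes. Hes2 had 7.1, 13.4 and 6.67 CPM in Vil.Cre Maf.flox and 32, 22.3 and 10.2 CPM in Maf.flox, and the groups overlapped. Its log2 fold change was -1.25 (adjusted p = 0.244 by edgeR's quasi-likelihood test). The smallest edgeR p among the listed genes outside the members was that of Itch, a ubiquitin ligase that acts on Notch. Itch had 100, 98.4 and 95.5 CPM in Vil.Cre Maf.flox and 135, 126 and 110 CPM in Maf.flox, with a log2 fold change of -0.33. Numb, an adaptor that restrains Notch, had 68.0, 70.9 and 64.3 CPM in Vil.Cre Maf.flox and 96.1, 96.4 and 72.6 CPM in Maf.flox (-0.38). Neither Itch nor Numb overlapped between genotypes and neither passed over all genes (adjusted p = 0.172 and 0.189 by edgeR's quasi-likelihood test).

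Notch4, a further receptor, had the smallest p of the genes outside the members with a log2 fold change above 0. It had 10.6, 11.2 and 10.1 CPM in Vil.Cre Maf.flox and 6.47, 6.25 and 9.20 CPM in Maf.flox, without overlap. Its log2 fold change was 0.54, with an adjusted p of 0.208 in the same edgeR fit. Maml3, a coactivator of the Notch complex, had a log2 fold change of -0.36, and Neurl1b, a ubiquitin ligase that acts on ligands, one of -0.45. Their adjusted p were 0.222 and 0.224 by the same edgeR test. The genotypes did not overlap for Maml3 and overlapped for Neurl1b. Rbpj had 29.4 ± 0.408 CPM in Vil.Cre Maf.flox and 31.7 ± 0.905 CPM in Maf.flox (SD, n = 3 each) and a log2 fold change of -0.11, and Olfm4, a stem cell gene that Notch activates, had one of -0.23. Rbpj and Olfm4 were picked for their place in the pathway after values were seen.

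The list of 33 secretory lineage transcription factors holds 4 of the members, and 30 of its genes were tested. Of these, 13 lay above 0 and 17 below 0, with a median of -0.02. In the edgeR fit 0 of 30 passed over all genes. At an unadjusted p under 0.05 there were 5 (2 higher, 3 lower), beside the same 16.4% of all genes (7.11% higher, 9.25% lower). The genotypes did not overlap for 2 genes higher in Vil.Cre Maf.flox and 1 lower, against 10.1% and 10.5% of all genes. DESeq2 called 2, Gfi1 and Id2, beside its 5.64%. Id2, a helix-loop-helix protein that cannot bind DNA and holds back factors of the Atoh1 class, had 24.4, 31.8 and 30.6 CPM in Vil.Cre Maf.flox and 36.4, 54.0 and 41.3 CPM in Maf.flox. The groups did not overlap, and the log2 fold change was -0.60 (SE 0.165, adjusted p = 0.134 by edgeR's quasi-likelihood test).

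Creb3l1, a membrane-bound factor of secretory cells, had 101, 100 and 66.6 CPM in Vil.Cre Maf.flox and 73.7, 62.6 and 62.7 CPM in Maf.flox, and Xbp1, which expands the secretory apparatus, had 296, 258 and 224 CPM in Vil.Cre Maf.flox and 221, 212 and 214 CPM in Maf.flox. For both, as for Gfi1 and for 39.3% of all genes tested, replicate 3 was the lowest Vil.Cre Maf.flox library. Their log2 fold changes were 0.43 and 0.26, with adjusted p of 0.247 and 0.328 in the edgeR fit. Klf4, a factor of differentiating epithelium, had a log2 fold change of -0.48 (adjusted p = 0.279 by the same edgeR test). Pou2f3, which specifies tuft cells, had 0.456, 0.411 and 1.03 CPM in Vil.Cre Maf.flox and 1.18, 4.11 and 0.996 CPM in Maf.flox, with Maf.flox replicate 2 far above the rest, and a log2 fold change of -1.67.

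**Figure D4:**
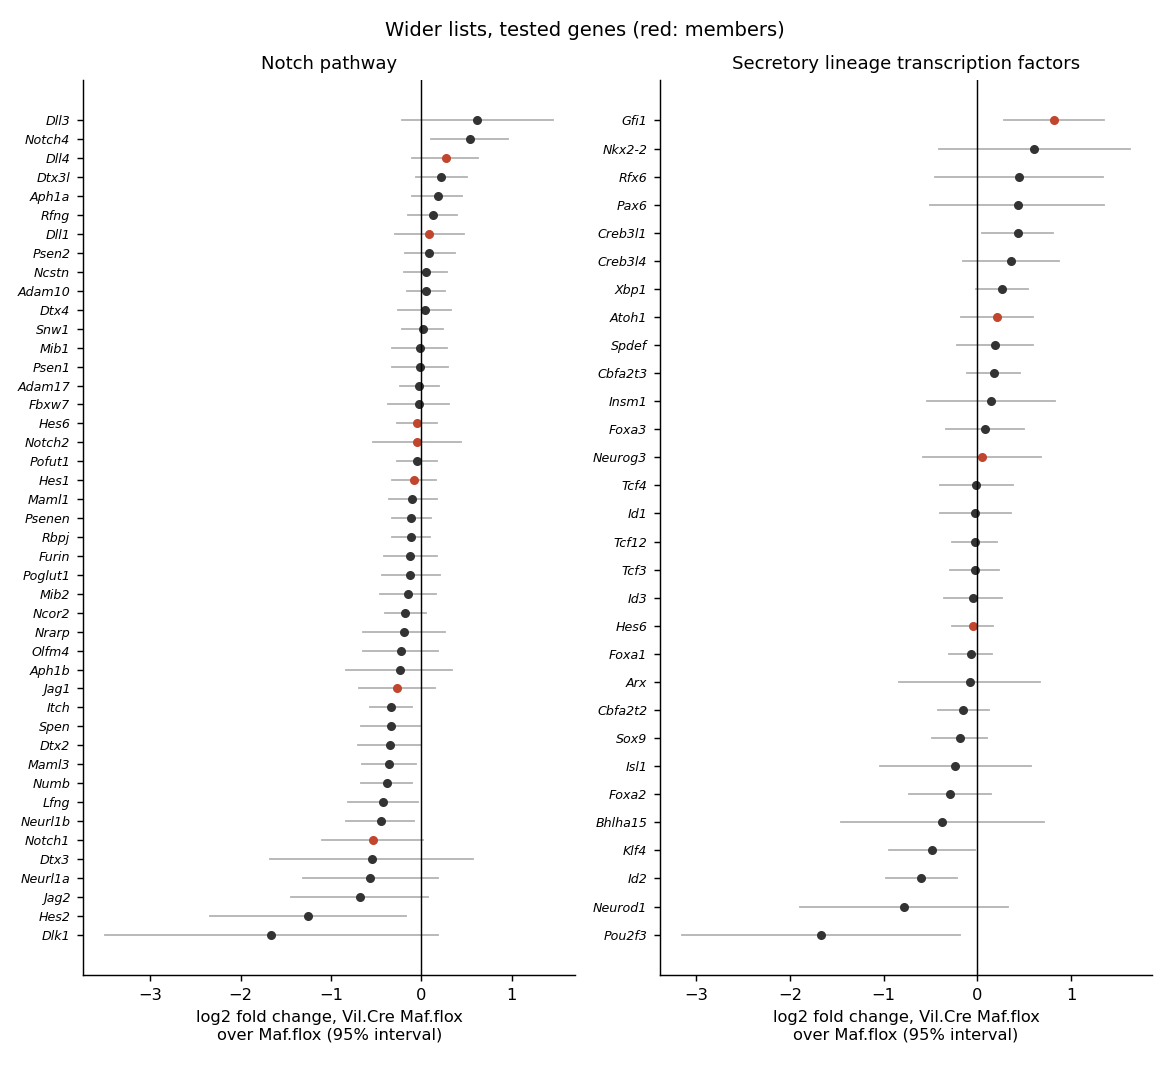
Log2 fold changes, Vil.Cre Maf.flox over Maf.flox, with 95% intervals for the 44 tested genes of the Notch pathway list and the 30 tested secretory lineage transcription factors, with members in red. Points lie on both sides of 0 in both panels, 12 above and 32 below on the left, and 13 above and 17 below on the right.

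Markers of the mature cell types that these factors give rise to were set beside them. No goblet, Paneth, enteroendocrine or tuft marker passed edgeR's quasi-likelihood test over all genes, of 8, 9, 13 and 8 tested. An unadjusted p under 0.05, which 16.4% of all genes had, was found for 1 goblet marker, higher in Vil.Cre Maf.flox, for 0 Paneth and 0 enteroendocrine markers, and for all 8 tuft markers tested, each lower. The goblet marker was Agr2, a protein disulfide isomerase of mucus-secreting cells, with 1200 ± 487 CPM in Vil.Cre Maf.flox and 643 ± 141 CPM in Maf.flox (SD, n = 3 each) and a log2 fold change of 0.90 (adjusted p = 0.234, edgeR's quasi-likelihood test). The medians of the log2 fold changes were -0.23 for goblet, -1.13 for Paneth, -0.60 for enteroendocrine and -1.87 for tuft markers. Summed goblet marker levels were 15400 to 29400 CPM in Vil.Cre Maf.flox and 15600 to 34400 CPM in Maf.flox, those of Paneth markers 8050 to 11700 and 5890 to 37800 CPM, and those of enteroendocrine markers 336 to 645 and 379 to 1070 CPM. These ranges overlapped. The tuft markers, 16.8 to 21.4 CPM in Vil.Cre Maf.flox and 23.3 to 116 CPM in Maf.flox, did not overlap. The 8 enterocyte markers summed to 5370 to 9290 CPM in Vil.Cre Maf.flox and 8100 to 18100 CPM in Maf.flox, which overlapped. All 8 lay below 0 on the log2 fold change scale (median -1.26), and 5 had an unadjusted p under 0.05, but 0 passed edgeR's test over all genes. The genotypes did not overlap for 3 of them, the fatty acid binding proteins Fabp1 and Fabp2 and the apolipoprotein Apoa4, where 10.5% of all genes lay wholly below in Vil.Cre Maf.flox. The part of these markers in the members' levels was not tested.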

How the data were processed

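Per the labels' protocols, mRNA was selected with poly-T beads from total RNA of sorted cells and primed with random hexamers; whether libraries kept strand is not given in the sources used here. The submitters' processing notes name featureCounts 1.5.0-p3, HISAT2 2.0.5, DESeq2 and the GRCm38 (mm10) build. The authors deposited raw whole-number counts. Their deposited FPKM is the count over gene length and over a library size 0.953 to 1.07 times the summed counts, and was used for levels per length only.

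The test was that of edgeR 4.0.16 under R 4.3.3 (filterByExpr with a least count of 10, TMM, robust quasi-likelihood F test, Benjamini-Hochberg adjustment over 13740 genes, called at adjusted p under 0.05), with genotype as the only term. SEs were derived from that fit as the size of the log2 fold change over the square root of its F statistic. The 95% intervals were built from these SEs with the t distribution. Whether an interval includes 0 thus restates the unadjusted p. Log2 CPM within sexes used a prior count of 2. Alternatives were other scalings, no filter, at least 1 CPM in 3 libraries, DESeq2 1.42.0, limma-voom (limma 3.58.1), a replicate block, a sex term and each library left out. No library was a copy of another (chi-square between replicates of 35.2 to 133 per gene). The members, lists and tests were chosen with earlier results of these data known. Genes outside the members were named by smallest p within each wider list, 5 each, and as the 2 highest of each marker list. Of the latter, Itgam, Lcp1, Fabp2 and Olfm4 are named, Olfm4 for its place in the Notch pathway, and the rest are given within sums. Hes2, Rbpj, Olfm4, Vil1, Ptprc, Agr2, Fabp1 and Apoa4 were named after their values were seen. Intervals cover the spread between these libraries.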

Additional observations from a re-analysis of the deposited data

How the results depend on the processing

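Of the 10 members, Notch1, Dll4, Jag1, Atoh1 and Gfi1 kept their direction in all 14 alternative fits. Their log2 fold changes were -0.78 to -0.32 for Notch1, 0.10 to 0.40 for Dll4, -0.49 to -0.14 for Jag1 and 0.05 to 0.39 for Atoh1. Within males and females, differences of mean log2 CPM were 0.29 and -0.18 for Atoh1, -0.38 and 0.03 for Jag1, and 0.33 and 0 for Dll4. The direction of Atoh1, Jag1 and Dll4 thus did not hold in both sexes, whereas that of Notch1 and Gfi1 did. Gfi1 ran from 0.60 to 1.06 with 1 library left out in turn and was called by DESeq2 alone (0.82). With the sex term Notch2 was 0.11 and Dll1 -0.06, turning their sign. With 1 library left out Notch2 ran from -0.26 to 0.14, Dll1 from 0 to 0.28, Neurog3 from -0.08 to 0.23, Hes1 from -0.12 to 0.01 and Hes6 from -0.07 to 0.01, so the direction of these 5 was not fixed. The members' median ran from -0.06 to 0.06 over the alternatives. The number of members called was 1 with DESeq2 and 0 otherwise. For the Notch pathway list it was 1 with DESeq2 (Hes2) and 0 to 3 with 1 library left out, the 3 being Hes2, Numb and Notch4 without Maf.flox replicate 3. For the secretory factors it was 2 with DESeq2, 1 with the replicate block (Id2) and 0 to 1 with 1 library left out (Klf4 without Maf.flox replicate 3).

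Over all genes, against 75 calls there were 365 with no filter, 760 with DESeq2, 34 with limma-voom, 38 with the sex term, 440 with the replicate block, and 8 to 701 with 1 library left out, the last without Maf.flox replicate 3; the cause was not tested. In deviations from the group means, replicates with equal numbers had correlations of 0.092, -0.026 and 0.269, and Vil.Cre Maf.flox replicate 2 was closest to Maf.flox replicate 1, so these numbers do not show a pairing and the replicate block was kept out of the tests reported. Neurog3, at 29 to 53 counts a library, is the member whose precision depth limits most.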
